A study of Homo sapiens with 6 samples.

Results

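The DNA replication genes described here are 45 genes, found in the data by name, whose products mark replication origins, open the double helix, copy both strands and supply deoxynucleotides. All 45 were found among the 33007 genes of the deposited table, each with its counts in all samples, and all 45 passed the filter on low counts that left 18390 genes for testing. They were measured in LM3 cells, an established human HCC (liver cancer) line, and compared between 3 vector control samples and 3 samples stably knocked down for ZNF706. The labels give every sample the genotype WT and the treatment either control or ZNF706 knockdown, and no other allele or agent. The knockdown came from lentiviral delivery of a pLKO.1 short hairpin vector, and infected cells were selected with puromycin. Of the hairpins the study describes, the one in these samples is not given in the sources used here, and neither is whether replicates came from separate cultures. The p-values therefore measure the spread between these samples, which may be technical.

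Total counts were 62684076, 64713764 and 63054445 in the controls and 68548419, 65861994 and 69057423 in the knockdown samples. The 45 genes had mean counts from 1111 (GINS3) to 38746 (RRM2). Levels are given as CPM, the raw counts scaled to a common library size by the TMM method of edgeR, and changes as the log2 fold change of knockdown against control with its standard error (SE). A gene was called lower or higher when the quasi-likelihood test of edgeR gave it a p, adjusted by the Benjamini-Hochberg method over all 18390 genes, of less than 0.05. The targeted gene, ZNF706, had 51.9, 55.1 and 54.7 CPM in the controls and 33.5, 30.8 and 32.8 CPM in the knockdown samples. The label of the line was checked against marker genes. Simple epithelial keratins were abundant, with KRT8 at 1510, 1520 and 1580 CPM in the controls and 1480, 1540 and 1600 CPM in the knockdown samples. Of the other epithelial markers, KRT18 was at means of 963 and 898 CPM in controls and knockdown cells, but 2 were low, with CDH1 at means of 2.10 and 3.17 CPM and EPCAM at 0.379 and 0.639 CPM. Hepatocyte markers were low, with ALB, the most abundant of them, at a mean of 10.5 CPM in controls and 6.60 CPM in knockdown cells and with TTR under 1 CPM in every sample.

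Before S phase, the origin recognition complex (ORC) with CDC6 and CDT1 loads the MCM helicase onto origins, and geminin (GMNN) binds CDT1 so that no origin is loaded again in the same cycle. CDC45 and the GINS complex then turn the loaded helicase into a moving one, polymerase alpha with primase starts each strand, and polymerases delta and epsilon extend it behind the PCNA clamp that the RFC complex loads. Many of these genes are transcribed in a wave before S phase under E2F factors, and HCC cells, like other dividing cells, express them at higher levels than resting hepatocytes do.

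Sequence upstream of the genes was taken from RefSeq promoters (GRCh38.p14, 250 bases before each start), which matched 39 of the 45 genes. The others are GINS4, MCM4, MCM5, POLD3, RPA2 and RPA3. A word bound by E2F factors was searched as TTTCCCGC, TTTCGCGC, TTTGCCGC or TTTGGCGC on either strand. Of the 39 genes, 14 (35.9%) held one, against 5.45% of the 11360 tested genes with a promoter and 3.40% of all 27305 genes of the promoter table. Counted over windows, since 9 of the genes have more than 1 start, the shares were 28.0% of 50 and 2.79% of 35093. The E2F word was about as frequent in each class of call, with 6 of 17 genes called lower, 2 of 5 called higher and 6 of 17 not called. The word CCAAT, the box of the factor NF-Y, was in 24 of 39 (61.5%), against 41.2% of the tested genes and 37.0% of all genes of that table. The word TTTGAA, the core of the CHR element known from mitotic promoters, was in 1 of 39 (2.56%), that of RRM1, against 12.1% of the tested genes and 16.1% of all genes of that table. The stretches below show the word, in capitals, in the 6 called genes of smallest p that hold one, each 5′ to 3′ on the strand of its gene. GMNN, POLA2, MCM7, CDT1 and PCNA were called lower and ORC3 was called higher, so the word was found in promoter windows of genes of both directions. Genes of the deposited table can begin at an earlier start, and there the GMNN, ORC3 and MCM7 stretches lie inside the gene, as do the last bases of the POLA2 stretch. In ORC3, CDT1 and PCNA it is read on the other strand, GCGGGAAA being the reverse complement of TTTCCCGC.
GMNN chr6:24775322-24775351 (+): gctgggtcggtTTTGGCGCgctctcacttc
POLA2 chr11:65261898-65261927 (+): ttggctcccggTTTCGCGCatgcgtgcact
MCM7 chr7:100101398-100101427 (-): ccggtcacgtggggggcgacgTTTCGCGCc
CDT1 chr16:88803728-88803787 (+): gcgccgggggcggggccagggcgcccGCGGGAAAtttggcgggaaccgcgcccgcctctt
PCNA chr20:5126648-5126707 (-): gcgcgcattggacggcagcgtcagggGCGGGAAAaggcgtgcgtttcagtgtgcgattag
ORC3 chr6:87590105-87590134 (+): ctgcagccgcgagggcgcGCGGGAAAtccc
The word begins between 9 bases (MCM7) and 80 bases (GMNN) before the RefSeq start of the gene. Positions of genes below are those of the deposited table, on GRCh38. A match is a run of letters and does not show that a factor is bound there.

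ZNF706 knockdown cells had lower levels of 18 of the 45 DNA replication genes and higher levels of 5, while 22 did not pass the test. The 18 are 40.0% of the genes, beside 12.4% of all genes tested that were called lower, and the 5 are 11.1%, beside 10.4% that were called higher. The changes were small. The 18 lower genes decreased by 9.52% (RFC3) to 31.3% (GMNN), and the largest rise was that of ORC3, of 29.4%. Over the 45 genes the median log2 fold change was -0.097, against 0.0095 over all genes tested, and 34 estimates lay below 0. The lower genes were ORC4, ORC6, CDC6, CDT1, GMNN, MCM7, MCM10, CDC45, GINS3, POLA2, PRIM1, POLD3, PCNA, RFC3, RFC5, FEN1, RRM1 and RRM2, and the higher genes were ORC3, MCM3, POLD1, POLD2 and RFC4. The 3 control values and the 3 knockdown values did not overlap in 23 genes with lower and 5 with higher knockdown values, beside 19.7% of all genes in each direction. The study's criteria (unadjusted p under 0.05, change on the log2 scale of 0.3 or more) were applied to edgeR values. The study itself used DESeq2. By these criteria, 4 of the 45 genes were lower (GMNN, POLA2, ORC6 and POLD3) and 2 higher (ORC3 and POLD1). Of all genes tested, 5.88% were lower and 9.61% higher. The share lower among the 45 was thus close to the background and the share higher was below it. POLA2 depends on how reads were counted, as given below. In RNA from whole cultures, fewer cells in S phase and less RNA per cell cannot be told apart.

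**Figure D1:**
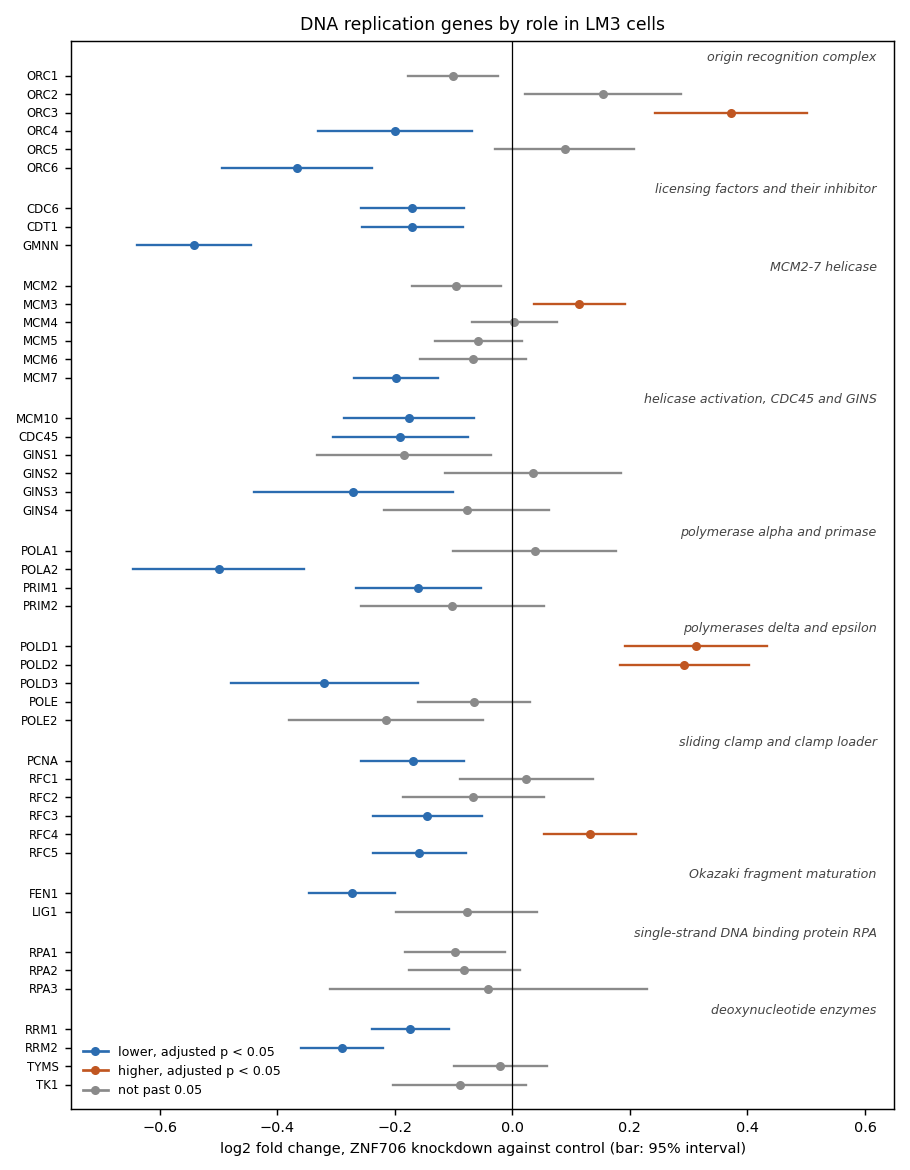
Log2 fold change of each of the 45 DNA replication genes (ZNF706 knockdown against control, n = 3 each) with its unadjusted 95% interval, grouped by role and coloured by call. Most points lie left of 0, GMNN and POLA2 lie farthest left, and ORC3, POLD1 and POLD2 lie farthest right.

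How many genes were called lower depended on the scaling and, less, on single libraries. Raw totals, the TMM factor and the mitochondrial share moved with the groups. The TMM factor was 0.988, 0.983 and 0.974 in the controls and 1.024, 1.019 and 1.014 in the knockdown samples, and mitochondrial genes held 5.40%, 5.19% and 5.40% of the control counts and 5.03%, 5.02% and 4.79% of the knockdown counts. The part of depth and of the mitochondrial share in the result was not tested. Without the TMM factor, that is with library size as the only scaling, the median log2 fold change over all genes moved up by 0.054, and 8 genes were lower (background 8.25%) and 6 higher (background 14.9%). The genes no longer called were ORC4, CDC6, CDT1, MCM10, CDC45, GINS3, PRIM1, PCNA, RFC3 and RFC5. As a share of total counts, which is itself a scaling by library size, the 45 genes together held 0.549%, 0.546% and 0.536% in the controls. In the knockdown samples they held 0.523%, 0.525% and 0.518%, so the groups did not overlap in this share. The share is weighted towards the genes with the most counts, RRM2 and RRM1 first, so it does not show a fall over the whole set. Without knockdown replicate 2 the test called 10 genes lower, where the background was also lower, at 7.85%. Leaving out control replicate 1, 2 or 3 left 3 called higher, with backgrounds of 7.74%, 7.30% and 7.14%. In the 6 fits that each left out 1 library, 12 genes were called every time, namely ORC3, ORC6, GMNN, MCM7, POLA2, POLD1, POLD2, POLD3, RFC5, FEN1, RRM1 and RRM2.

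Cell type markers were read beside these counts. The summed CPM of 11 hepatocyte markers was 15.2, 38.9 and 45.04 in the controls and 21.9, 22.6 and 9.22 in the knockdown samples. Control replicate 1 and knockdown replicate 3 were thus the lowest of their groups, and without them in turn the test called 14 (background 9.84%) and 13 (background 9.98%) replication genes lower. Of the 10 hepatocyte markers tested, SERPINA1 and APOB fell. Leukocyte markers summed to 27.3, 27.3 and 28.4 CPM in the controls and 41.0, 44.1 and 40.6 CPM in the knockdown samples, nearly all of it CD68, a lysosomal gene that many cell types express (log2 fold change 0.64, adjusted p = 0.000106 from edgeR). PTPRC, which defines leukocytes, had 16 counts over all samples. Fibroblast markers summed to 81.6, 79.4 and 81.9 CPM in the controls and 94.1, 96.3 and 95.4 CPM in the knockdown samples, most of it COL1A1 (log2 fold change 0.20), and PDGFRB rose too (log2 fold change 0.68), while COL1A2, DCN and ACTA2 had means under 1 CPM. COL1A2 was at 1.89 CPM in control replicate 1 and 1.70 CPM in knockdown replicate 3, and at most 0.126 CPM in the other samples. The 2 samples lowest in hepatocyte markers were thus the highest in COL1A2. Endothelial markers summed to 13.6, 14.9 and 16.3 CPM and to 11.2, 12.6 and 13.1 CPM, CDH5 fell (log2 fold change -0.70) and VWF was under 1 CPM. Their part in the result was not tested.

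Geminin gave the largest change among the licensing factors and among all 45 genes. GMNN (ENSG00000112312, chromosome 6, 24774931 to 24786099, plus strand), the inhibitor of CDT1, was at 135, 142 and 139.6 CPM in the controls and 90.2, 96.2 and 99.4 CPM in the knockdown samples. All knockdown values were far below the lowest control value. The mean was 139 ± 3.54 (SD, n = 3) in controls and 95.3 ± 4.70 (SD, n = 3) in the knockdown group, a log2 fold change of -0.54 (SE 0.043, adjusted p = 6.78e-05 from edgeR). CDC6, the ATPase that joins ORC to load the helicase, and CDT1, which brings the helicase in, fell by 0.17 each on the log2 scale (adjusted p = 0.012 and 0.0107 from edgeR). Both lost their call without knockdown replicate 2 and with library size scaling, for which CDT1 had an adjusted p of 0.0521. The log2 ratio of GMNN to CDT1 counts, which needs no scaling between libraries, was 1.08, 1.10 and 1.12 in the controls and 0.66, 0.78 and 0.75 in the knockdown samples. In all knockdown samples GMNN counts were thus lower relative to CDT1 counts, by 0.37 on the log2 scale. The two-sided p was 0.1 by an exact permutation test, the smallest that 3 against 3 samples can give. The ratio is not free of GC content, which was 43.6% in GMNN and 64.9% in CDT1. With the trend of counts over GC content removed from each library, the log2 fold changes were -0.48 for GMNN and -0.27 for CDT1, which lie closer together.

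Subunits of the origin recognition complex moved in opposite directions, with 2 of 6 called lower and 1 higher, beside 12.4% and 10.4% of all genes tested. ORC6 (ENSG00000091651, chromosome 16, 46689643 to 46698394, plus strand), the smallest subunit, was at 42.0, 44.7 and 45.03 CPM in the controls and 35.4, 31.8 and 34.9 CPM in the knockdown samples. Its groups did not overlap, and its log2 fold change was -0.37 (SE 0.057, adjusted p = 0.00169 from edgeR). ORC3 (ENSG00000135336, chromosome 6, 87590067 to 87667453, plus strand), a subunit of the core of the complex, was at 41.2, 44.1 and 44.0 CPM in the controls and 53.9, 53.0 and 60.4 CPM in the knockdown samples. Here all knockdown values were above all control values, with a log2 fold change of 0.37 (SE 0.058, adjusted p = 0.00165 from edgeR). The log2 ratio of ORC6 to ORC3 counts was 0.030, 0.018 and 0.033 in the controls and -0.61, -0.74 and -0.79 in the knockdown samples, the widest shift of the 6 ratios compared. ORC4 fell (log2 fold change -0.20, SE 0.059, adjusted p = 0.0356), a call that held in only 1 of the 6 fits that each left out 1 library. ORC1, the ATPase subunit, was at a log2 fold change of -0.10 (adjusted p = 0.0625) with no overlap, ORC2 had 0.15 (adjusted p = 0.0931) and ORC5 0.089 (adjusted p = 0.273) with overlap. ORC2 passed the test with library size scaling (adjusted p = 0.0341). With the trend of counts over GC content removed from each library, ORC2 (0.26, adjusted p = 0.0105) and ORC5 (0.18, adjusted p = 0.0392) were called higher. ORC4 was then not called (adjusted p = 0.385). This left 1 subunit lower and 3 higher, beside 10.1% and 10.6% of all genes under that setting.

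Of the 6 subunits of the replicative helicase, 1 (16.7%), MCM7, fell and 1 (16.7%), MCM3, rose, beside 12.4% and 10.4% of all genes tested. The others did not pass the test. MCM7 (ENSG00000166508, chromosome 7, 100092728 to 100101940, minus strand) was at 356, 352 and 351 CPM in the controls and 299.7, 316 and 309 CPM in the knockdown samples, with no overlap. The log2 fold change was -0.20 (SE 0.032, adjusted p = 0.00197 from edgeR). MCM3 was at 233, 229 and 225 CPM in the controls and 254, 249 and 239.9 CPM in the knockdown samples, or a log2 fold change of 0.11 (SE 0.035, adjusted p = 0.04), and it kept its call in 1 of the 6 fits that each left out 1 library. MCM2 and MCM5 were lower in each knockdown sample than in any control sample, at log2 fold changes of -0.095 (adjusted p = 0.0697) and -0.058 (adjusted p = 0.252). MCM6 had -0.066 (adjusted p = 0.287). With the GC trend removed, MCM2 (-0.15, adjusted p = 0.0131) and MCM5 (-0.11, adjusted p = 0.0456) were called lower with MCM7, and MCM3 was not called (adjusted p = 0.0694). Under that setting 10.1% of all genes were lower and 10.6% higher. DESeq2 called MCM2 lower too (adjusted p = 0.0472). MCM4 was the gene whose estimate lay nearest 0, at 365 ± 8.97 CPM in controls and 366 ± 5.83 CPM in knockdown cells (SD, n = 3 each), with a 95% interval of the log2 fold change from -0.068 to 0.075. The 6 subunits enter the helicase in equal numbers. The log2 ratio of MCM7 to MCM3 counts was 0.61, 0.62 and 0.64 in the controls and 0.24, 0.34 and 0.36 in the knockdown samples.

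Among the genes that activate the helicase, 3 of 6 fell and none rose, beside 12.4% and 10.4% of all genes tested. None of the 6 was called lower with library size scaling or without control replicate 2, and 1, CDC45, was with the GC trend removed. CDC45 (ENSG00000093009, chromosome 22, 19479457 to 19520612, plus strand), which binds the helicase when an origin fires, was at 43.5, 44.9 and 42.7 CPM in the controls and 39.4, 36.2 and 39.2 CPM in the knockdown samples. The groups did not overlap, though the gap between them was narrower than that of GMNN, and the log2 fold change was -0.19 (SE 0.052, adjusted p = 0.0251 from edgeR). MCM10, a factor needed to start unwinding, fell by 0.18 on the log2 scale (adjusted p = 0.0293), and GINS3 fell by 0.27 (SE 0.075, adjusted p = 0.0285). CDC45 kept its call in 3, MCM10 in 2 and GINS3 in 1 of the 6 fits that each left out 1 library. The other subunits of the GINS complex did not pass the test. GINS1 was at a log2 fold change of -0.18 (adjusted p = 0.0744), GINS4 of -0.078 (adjusted p = 0.432) and GINS2 of 0.036 (adjusted p = 0.758).

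**Figure D2:**
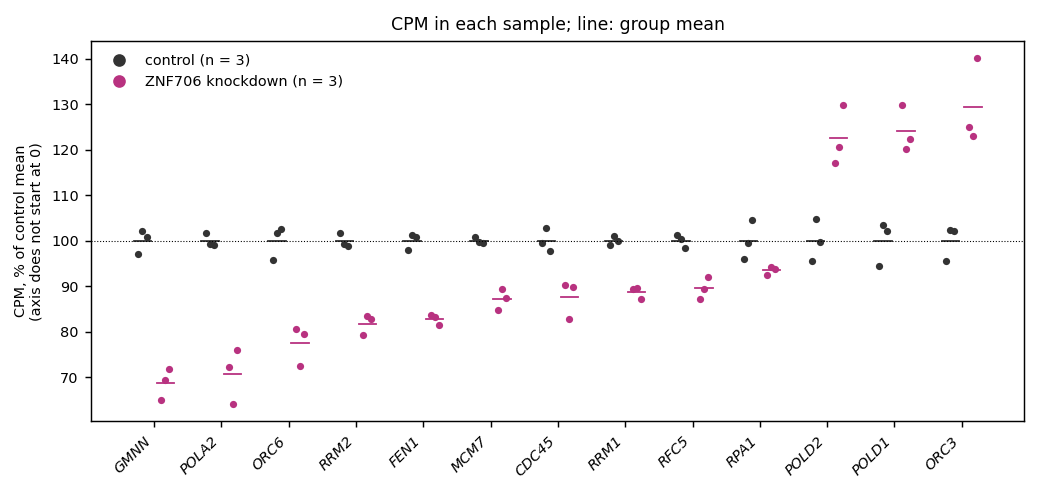
CPM in each sample as a percentage of the control mean of the gene, for the 10 genes of smallest p and the gene of smallest p in each role, with a line at each group mean (n = 3 each). The 3 knockdown points lie apart from the 3 control points in each gene shown, below them in 10 genes and above them in ORC3, POLD1 and POLD2.

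The initiating polymerase holds the value most open to how reads were counted. POLA2 (ENSG00000014138, chromosome 11, 65261920 to 65305589, plus strand), the second subunit of polymerase alpha, was at 44.8, 43.8 and 43.6 CPM in the controls and 31.8, 28.2 and 33.5 CPM in the knockdown samples, with a log2 fold change of -0.50 (SE 0.065, adjusted p = 0.000697 from edgeR). The gene shares 43662 bases with AP000944 (ENSG00000285816, chromosome 11, 65261928 to 65326543), which lies on the same strand and runs past its end. AP000944 was at 13.9, 13.5 and 10.7 CPM in the controls and 36.9, 33.8 and 27.4 CPM in the knockdown samples (log2 fold change 1.37, SE 0.13, adjusted p = 0.000142). Reads of shared exons can be given to either gene, so POLA2 alone is uncertain. The sum of both genes was 58.7, 57.3 and 54.3 CPM in the controls and 68.7, 62.0 and 60.9 CPM in the knockdown samples, a rise of 0.17 on the log2 scale (SE 0.053, adjusted p = 0.0444 from edgeR), opposite in sign to POLA2 alone. This sum was chosen after the values were seen. With it in place of POLA2, 17 genes were lower and 6 higher. POLA1, the catalytic subunit, was at a log2 fold change of 0.038 (adjusted p = 0.722). PRIM1, the subunit that makes the RNA primer, fell by 0.16 (SE 0.048, adjusted p = 0.0372). It was called in 1 of the 6 fits that each left out 1 library and not by DESeq2 (adjusted p = 0.0585). With the GC trend removed PRIM1 was at -0.063 (adjusted p = 0.4). PRIM2 had -0.10 (adjusted p = 0.345).

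**Figure D3:**
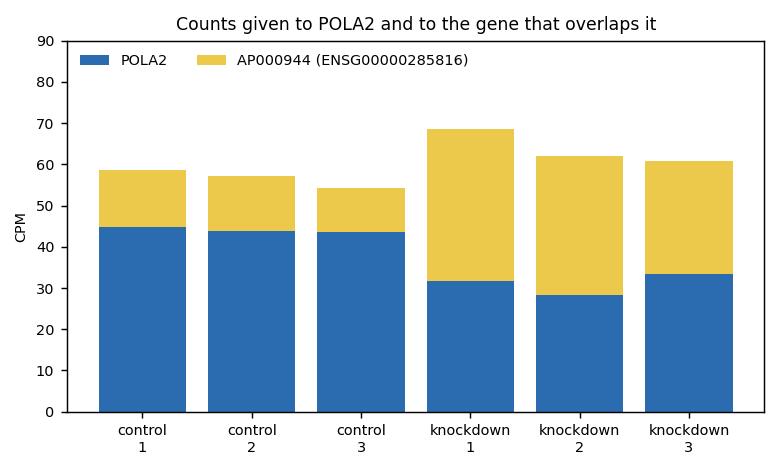
CPM given to POLA2 and to AP000944, which overlaps it on the same strand, stacked for each of the 6 samples. The POLA2 part is lower and the AP000944 part higher in the knockdown samples, and the stacked height runs from 54.3 to 58.7 CPM in the controls and from 60.9 to 68.7 CPM in the knockdown samples.

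Polymerase delta, which extends mainly the lagging strand, changed unevenly. POLD1 (ENSG00000062822, chromosome 19, 50384204 to 50418018, plus strand), its catalytic subunit, was at 34.7, 38.0 and 37.4 CPM in the controls and 47.7, 44.1 and 44.9 CPM in the knockdown samples (log2 fold change 0.31, SE 0.054, adjusted p = 0.003 from edgeR). POLD2 (ENSG00000106628, chromosome 7, 44114681 to 44123668, minus strand), the subunit that joins the catalytic one to the rest, was at 109.7, 120.3 and 115 CPM in the controls and 135, 139 and 149 CPM in the knockdown samples (log2 fold change 0.29, SE 0.049, adjusted p = 0.00242 from edgeR). Neither gene overlapped between the groups. POLD3 (ENSG00000077514, chromosome 11), a subunit that binds PCNA, was at 37.3, 31.3 and 35.2 CPM in the controls and 28.1, 27.3 and 27.7 CPM in the knockdown samples, again with no overlap but in the other direction (log2 fold change -0.32, SE 0.071, adjusted p = 0.0102 from edgeR). The log2 ratio of POLD3 to POLD2 counts was -1.56, -1.94 and -1.70 in the controls and -2.26, -2.34 and -2.43 in the knockdown samples, a difference of -0.61. Of polymerase epsilon, which extends the leading strand, POLE and POLE2 did not pass the test. POLE, the catalytic subunit, was at a log2 fold change of -0.065 (adjusted p = 0.325), and POLE2 had -0.21 (SE 0.074, adjusted p = 0.0643) with no overlap.

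The clamp and 2 of the 5 subunits of its loader fell, and 1 loader subunit rose, beside 12.4% and 10.4% of all genes tested. None of these 6 genes was called lower with library size scaling, and PCNA alone was with the GC trend removed. PCNA, the ring that holds the polymerases on DNA, was at 202, 193 and 206 CPM in the controls and 172, 177 and 185 CPM in the knockdown samples, or a log2 fold change of -0.17 (SE 0.039, adjusted p = 0.0127 from edgeR), called in 4 of the 6 fits that each left out 1 library and not with library size scaling (adjusted p = 0.0516). RFC5 (ENSG00000111445, chromosome 12, 118013588 to 118032234, plus strand) was at 116, 115 and 113 CPM in the controls and 99.9, 102 and 105 CPM in the knockdown samples, with no overlap (log2 fold change -0.16, SE 0.035, adjusted p = 0.0104 from edgeR). It was not called with library size scaling (adjusted p = 0.0603) or with the GC trend removed (adjusted p = 0.0589). RFC3 fell by 0.14 (adjusted p = 0.0315), whereas RFC4 rose by 0.13 (adjusted p = 0.0221), and both kept their calls in at most 2 of the 6 fits that each left out 1 library. The log2 ratio of RFC5 to RFC4 counts was 0.57, 0.53 and 0.50 in the controls and 0.21, 0.27 and 0.25 in the knockdown samples. RFC1, the large subunit, was at a log2 fold change of 0.024 (adjusted p = 0.788) and RFC2 of -0.066 (adjusted p = 0.433).

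FEN1, the nuclease that trims the ends of Okazaki fragments, gave the third smallest p of the 45 genes. FEN1 (ENSG00000168496, chromosome 11, 61792911 to 61797238, plus strand) was at 182, 188 and 187 CPM in the controls and 155, 154 and 151 CPM in the knockdown samples. The spread within each group was small beside the gap between them, and the log2 fold change was -0.27 (SE 0.033, adjusted p = 0.000478 from edgeR). FEN1 lies almost wholly within FADS2 on the same strand, and the sum of both was still lower in each knockdown sample, at 193, 194 and 187 CPM against 223, 216 and 218 CPM. LIG1, the ligase that seals the fragments, was at a log2 fold change of -0.078 (adjusted p = 0.35) with overlap. None of the 3 subunits of RPA, which coats single-stranded DNA, passed the test. RPA1 (ENSG00000132383, chromosome 17, 1829702 to 1900082, plus strand), the largest of them, was at 187, 194 and 204 CPM in the controls and 181, 184 and 183 CPM in the knockdown samples, just short of overlap (log2 fold change -0.097, SE 0.038, adjusted p = 0.097 from edgeR). RPA2 had -0.082 (adjusted p = 0.208). RPA3 had -0.041 with the widest standard error of the 45 genes (0.12), and it overlaps UMAD1 on the opposite strand over most of its length.

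Among the enzymes of deoxynucleotide supply, both subunits of ribonucleotide reductase fell. RRM2 (ENSG00000171848, chromosome 2, 10120698 to 10210597, plus strand), the subunit that varies through the cell cycle, was at 664, 649 and 645 CPM in the controls and 517, 544 and 540.0 CPM in the knockdown samples. It is the gene with the most counts among the 45, with no overlap and a log2 fold change of -0.29 (SE 0.031, adjusted p = 0.000274 from edgeR). RRM1 (ENSG00000167325, chromosome 11, 4094707 to 4138875, plus strand), the catalytic subunit, was at 457, 465 and 460.3 CPM in the controls and 412, 412 and 401 CPM in the knockdown samples, with no overlap and a log2 fold change of -0.17 (SE 0.029, adjusted p = 0.00248 from edgeR). The fall of RRM2 exceeded that of RRM1, since the log2 ratio of their counts was 0.54, 0.48 and 0.49 in the controls and 0.33, 0.40 and 0.43 in the knockdown samples. For this ratio, as for the other 5, the exact permutation test gave a two-sided p of 0.1, the smallest possible (0.1 after adjustment over the 6), and the 6 pairs were chosen after the values were seen. TYMS, which makes thymidylate, had a log2 fold change of -0.020 (95% interval -0.10 to 0.059, adjusted p = 0.738), and TK1, the salvage kinase, had -0.090 (adjusted p = 0.246). TYMS overlaps ENOSF1 on the opposite strand, which was at 90.9, 91.5 and 108 CPM in the controls and 78.2, 77.8 and 76.2 CPM in the knockdown samples. In all, 10 of the 45 genes overlap a gene that has at least 10% as many counts, namely ORC4, GINS2, POLA1, POLA2, PRIM1, RFC4, FEN1, RPA1, RPA3 and TYMS, and since strand handling is not given in the sources used here, their values are less certain.

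Per gene length, the 45 genes were well above the usual gene. In FPKM, the authors' values scaled to length and library size, their median over all samples was 14.6, against 2.23 over all genes tested. The control means ran from 3.13 FPKM (GINS3) to 123 FPKM (PCNA). RRM1 (93.8 FPKM), TYMS (75.9 FPKM), FEN1 (72.8 FPKM), MCM7 (69.5 FPKM) and RRM2 (61.5 FPKM) followed PCNA. Genes whose products form 1 complex differed widely. The helicase subunits ran from 11.9 FPKM (MCM5) to 69.5 FPKM (MCM7), a 5.83-fold range in controls and 5.29-fold in the knockdown group. The ORC subunits ran from 4.64 FPKM (ORC4) to 23.9 FPKM (ORC1), the RPA subunits from 6.70 FPKM (RPA3) to 36.4 FPKM (RPA2), and CDC45 with MCM10 and the GINS subunits from 3.13 to 12.6 FPKM (CDC45). Across the polymerase subunits, the range between POLD3 and POLD2 was 4.94-fold in controls and 7.56-fold in the knockdown group. In each of the 10 roles, the same genes were lowest and highest in both groups. The median GC content of the 45 genes was 45.9% against 48.7% over all genes tested, with 44.9% in those called lower and 51.6% in those called higher. With the GC trend removed, 15 genes were lower (background 10.1%) and 6 higher (background 10.6%). ORC4, MCM3, MCM10, GINS3, PRIM1, RFC3 and RFC5 were then no longer called, while ORC2 and ORC5 were called higher and MCM2, MCM5 and TK1 lower. The median SE of the log2 fold changes of the 45 genes was 0.049 against 0.11, so small differences were more easily called among them. The genes lie on 19 chromosomes.

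**Figure D4:**
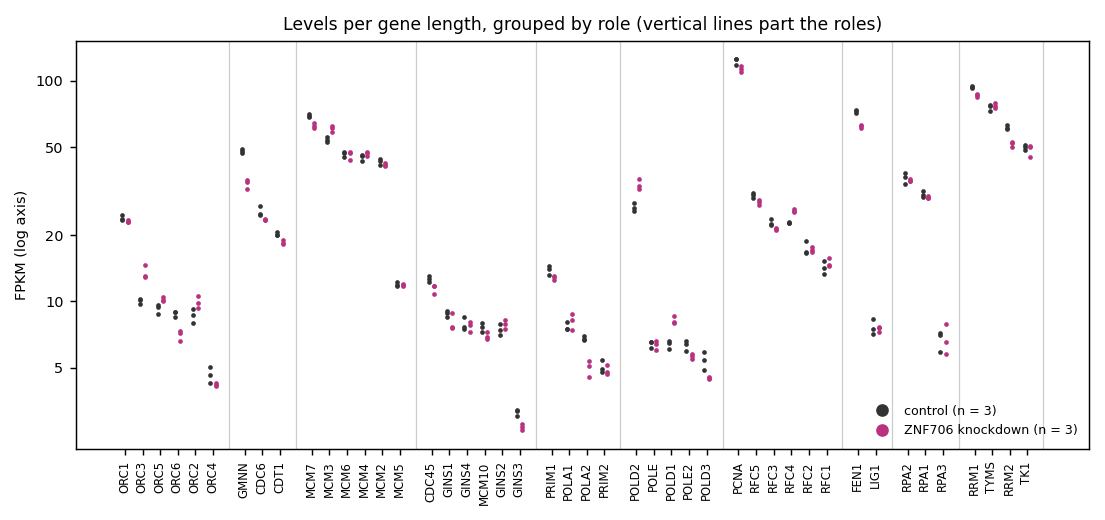
FPKM of the 45 genes in each of the 6 samples, on a log axis, grouped by role and ordered within it by the control mean. Levels within a complex spread up to several fold, with PCNA highest and GINS3 lowest, while the control and knockdown points of a gene lie close together.

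Further genes of the same pathway were read from 6 lists of 80 genes in all. Of these, 29 (36.2%) fell and 6 (7.5%) rose, beside 12.4% and 10.4% of all genes tested, and the median log2 fold change was -0.073. With library size scaling 22 were lower and 12 higher, beside 8.25% and 14.9% of all genes, so that the share higher was close to the background. Of 20 factors of origin firing and fork protection, 7 fell and 1 rose. With the GC trend removed these genes kept their calls. CDC7 (0.23, adjusted p = 0.0271) and WDHD1 (0.20, adjusted p = 0.00535) were then called higher as well, beside 10.1% lower and 10.6% higher of all genes. TICRR, which brings CDC45 to origins, went from 135 ± 0.724 to 112 ± 0.455 CPM (SD, n = 3 each), a log2 fold change of -0.28 (adjusted p = 0.000343). The topoisomerase gene TOP2A had -0.24 (adjusted p = 0.000378) and DBF4, the activator of the CDC7 kinase, -0.32 (adjusted p = 0.000838). TIMELESS, a fork protection gene, rose (0.21, adjusted p = 0.00345), whereas its partner TIPIN was among the 7 that fell (-0.34, adjusted p = 0.00544), a gene named here after its value was seen. Of 12 remaining polymerase subunits and factors of clamp unloading and primer removal, 4 fell, among them PCLAF (-0.22), ATAD5 (-0.27) and POLE3 (-0.14), and CHTF8 rose (0.24). With library size scaling 2 of that list were lower and 3 higher, and POLE3 was not called (adjusted p = 0.105). With the GC trend removed 1, POLE3, was lower and 1, CHTF8, higher, beside 10.1% and 10.6% of all genes. PCLAF (-0.13, adjusted p = 0.0688) and ATAD5 (-0.16, adjusted p = 0.0904) were then not called. ATAD5 and POLE3 kept their calls in 3 and CHTF8 in 4 of the 6 fits that each left out 1 library, and the median of the list was above 0, at 0.054.

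Replication-coupled chromatin assembly gave 4 lower and 1 higher of 9 genes, beside 12.4% and 10.4% of all genes tested. With library size scaling 3 were lower and 1 higher, beside 8.25% and 14.9% of all genes. With the GC trend removed 2 were lower and 1 higher, beside 10.1% and 10.6%. CHAF1A, the large subunit of the histone chaperone CAF-1, was at a log2 fold change of -0.25 (adjusted p = 0.00413), ASF1B -0.20 (adjusted p = 0.00476) and MMS22L -0.24 (adjusted p = 0.00554). With the GC trend removed, CHAF1A and ASF1B kept their calls and MMS22L did not (-0.12, adjusted p = 0.0544). ASF1A, the paralog of ASF1B, rose from 39.9 ± 0.176 to 48.6 ± 1.000 CPM (SD, n = 3 each), a log2 fold change of 0.28 (adjusted p = 0.00132). Of 7 genes of the ubiquitin ligases that control licensing, 4 fell and none rose, beside 12.4% and 10.4% of all genes tested. Among the 4 were SKP2 (-0.31, adjusted p = 0.00056) and DTL (-0.22, adjusted p = 0.00888), whose ligases mark CDT1 for breakdown. FZR1 (-0.27, adjusted p = 0.00371), an activator of the anaphase-promoting complex, which marks geminin, was another. With library size scaling 3 of the 7 were lower and 1 higher, beside 8.25% and 14.9% of all genes. With the GC trend removed 2 were lower and 1 higher, beside 10.1% and 10.6%. DTL was then not called (-0.14, adjusted p = 0.0638). Nucleotide supply gave 3 lower and 3 higher of 19 genes (15.8% each), near the 12.4% and 10.4% of all genes tested, with a median of 0.016. With library size scaling 2 were lower and 5 higher, beside 8.25% and 14.9% of all genes. Among the 19 genes, DUT (-0.21, adjusted p = 0.0144) and MTHFD1 (-0.13, adjusted p = 0.0247) fell. DUT was not called with the GC trend removed (adjusted p = 0.0607), nor MTHFD1 with library size scaling (adjusted p = 0.133). NME1 (0.33, adjusted p = 0.00842), TK2 (0.29, adjusted p = 0.0225) and GART (0.096, adjusted p = 0.0449) rose. Of the 6 fits that each left out 1 library, DUT kept its call in 5, MTHFD1 and TK2 in 2 and GART in 0.

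Of 13 E2F, DP and pocket protein genes, 7 (53.8%) fell and none rose, beside 12.4% and 10.4% of all genes tested. The median log2 fold change was -0.17. With library size scaling 5 were lower and 0 higher, beside 8.25% and 14.9% of all genes. RB1 kept its call in 0 and E2F2 in 2 of the 6 fits that each left out 1 library. The other called genes of this list kept theirs in all 6. With the GC trend removed, RB1 was at 0.0022 (adjusted p = 0.977) and not called. E2F7, a repressor of the E2F wave, had the smallest p of the 80 genes and went from 70.4 ± 2.47 to 49.0 ± 1.95 CPM (SD, n = 3 each), a log2 fold change of -0.52 (SE 0.045, adjusted p = 8.95e-05 from edgeR). E2F4 had -0.25 (adjusted p = 0.00318) and TFDP1, the DP partner of the E2F proteins, -0.17 (adjusted p = 0.00334). E2F1, the activator most studied at replication genes, was at 61.6 ± 1.76 CPM in controls and 56.5 ± 2.47 CPM in knockdown cells and did not pass the test (log2 fold change -0.13, SE 0.044, adjusted p = 0.068). With the GC trend removed, E2F1 was called lower (-0.21, adjusted p = 0.0106). MYC, another regulator of cell growth genes, fell by 0.15 on the log2 scale (SE 0.038, adjusted p = 0.0227 from edgeR), a call held in 2 of the 6 fits that each left out 1 library and not with library size scaling (adjusted p = 0.102).

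For comparison, of 29 mitosis genes 13 (44.8%) fell and none rose, and the median log2 fold change was -0.15. Of 25 genes of homologous recombination and the Fanconi pathway, 4 (16.0%) fell and 2 (8.0%) rose, near the 12.4% and 10.4% of all genes, with a median of -0.051. With library size scaling 12 mitosis genes were lower and none higher, and 1 recombination gene was lower and 6 were higher, beside 8.25% and 14.9% of all genes and the 8 and 6 of the 45 replication genes. The 45 replication genes thus lay between these lists in median. They held 5 that rose (11.1%), close to the 10.4% of all genes, and the mitosis genes held 0. These differences between lists were not tested.

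**Figure D5:**
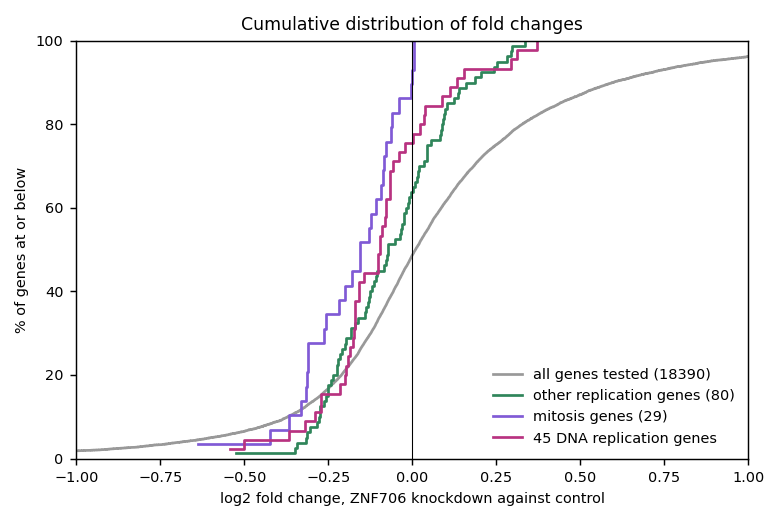
Cumulative distribution of log2 fold changes (ZNF706 knockdown against control) for the 45 DNA replication genes, 80 other replication genes, 29 mitosis genes and all 18390 genes tested. The 3 lists lie to the left of all genes over most of the range, with medians of -0.097, -0.073 and -0.15 against 0.0095, and they span a narrower range.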

How the data were processed

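The authors sequenced total RNA of 6 LM3 samples on the Illumina NovaSeq system and mapped the reads with HISAT2. The submitters' processing notes name cutadapt 1.9, FastQC and GRCh38. The counting program, annotation release and use of strand are not given in the sources used here. Per the file headers, the table the authors deposited holds raw counts and, beside them, FPKM, which is scaled to length and depth. The positions were checked against GENCODE release 29, where 99.98% of 32092 shared genes overlapped theirs.

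The counts passed filterByExpr and TMM scaling and went into the quasi-likelihood test of edgeR 4.0.16 (R 4.3.3) with a group term only and Benjamini-Hochberg adjustment over 18390 genes. The SE was taken as the size of the log2 fold change over the root of F. FPKM was used for levels only and, on the log2(FPKM + 0.1) scale where the mean reached 1 FPKM, in limma 3.58.1. The scripts were tested on simulated data. Alternatives were DESeq2 1.42.0, its size factors in edgeR, library size scaling, no filter, a floor of 50 on the mean count, a block for the replicate number, a loess GC trend (span 0.3) as an offset, limma, and each sample left out in turn. The gene lists, the 45 members and the tests were chosen with earlier results of these data known. By rule, all 45 genes may be named, with values per sample for the 10 of smallest p and the first of each role (MCM3, PCNA and POLD3 were added after their values were seen). Of each pathway list, up to 3 called genes per direction may be named. The rule also names MYC and E2F1 as regulators, and E2F1 was not called. TIPIN, CDC7, WDHD1, E2F2 and RB1 are named outside this rule, after their values were seen. Some results under this rule are not reported here. Precision is given by the spread between samples, which includes counting error.

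Replicates 1, 2 and 3 carry the same numbers in both groups, but same-numbered samples did not deviate together, with correlations of 0.034, -0.036 and -0.016.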

Additional observations from a re-analysis of the deposited data

How the results depend on the processing

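The direction of the member counts, more genes lower than higher, held under each alternative run, but the number called did not. Genes called lower were 18, and 8 with library size scaling and 4 by the study's criteria (5.88% of all genes). They were 10 to 15 in leave-one-out fits, with 10 without knockdown replicate 2 (7.85% of all genes). Genes called higher were 5, and 2 by the study's criteria (9.61% of all genes). They were 3 to 4 in those fits, with 3 without any 1 of control replicates 1, 2 and 3. The median log2 fold change of -0.097 was -0.043 with library size scaling, -0.048 with limma on log2(FPKM + 0.1), and -0.13 to -0.092 in those fits. Of the 80 pathway genes 6 were higher, and 12 with library size scaling, 10 with the GC trend removed, 12 with the replicate block and the GC trend removed, 12 with limma, and 3 to 6 in those fits, with 3 without control replicate 1. Of all genes, 14.9%, 10.6%, 10.5% and 20% were higher under these 4 settings. With the replicate block alone, 18 members were lower and 5 higher and no member's call changed. Of the 23 called genes, 11 kept their call under all 15 planned refits (FEN1, GMNN, MCM7, ORC3, ORC6, POLA2, POLD1, POLD2, POLD3, RRM1 and RRM2). The sign turned in 1 called gene, POLA2, at 0.17 when summed with the gene that overlaps it, an alternative chosen after seeing the data. Among genes not called it turned in MCM6 (0.0025 with the GC trend removed, 0.0021 with the block as well), RPA3 (0.013 with library size scaling, 0.0035 with limma) and TYMS (0.033 and 0.028). In those fits, it turned in MCM4 (-0.019 to 0.016), POLA1 (-0.020 to 0.10), RFC1 (-0.020 to 0.066) and RPA3 (-0.17 to 0.060). The cause was not tested.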
